A study of Homo sapiens with 8 samples.

Results

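RNA bound by PTBP1, the polypyrimidine tract-binding protein 1, was described across genes from the 2 peak lists of its immunoprecipitation (IP) libraries, each scored by the authors against its own input. After repeated lines were removed, replicate 1 held 600615 peaks and replicate 2 held 538802 peaks, together 1139417 of the 1843422 peaks of the series (61.8%). The assay was eCLIP, in which RNA crosslinked to a protein is pulled down with it and sequenced, in the established human glioma line A172, with 8 samples in 4 groups of 2: IP and input for PTBP1, and IP and input for IGF2BP2, an mRNA-binding protein that serves here only as a comparison. All groups shared the same labelling: cells took up 500 µM of the photoreactive nucleoside 4-thiouridine for 3 h and received 2 exposures of 400 mJ/cm2 at 365 nm, so every library, inputs included, comes from crosslinked cells and no group used here lacked crosslinking. RNA was cut with RNase I, 2% of the material was set aside as input, the membrane was cut at about 55 to 130 kDa for PTBP1 (65 to 140 kDa for IGF2BP2), and libraries of 175 to 350 bp were kept. The labels say the experiments were done 2 times without naming separate cultures, so p-values measure only the spread between these libraries.

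PTBP1 is an RNA-binding protein with several RNA recognition motifs that bind pyrimidine-rich stretches such as UCUU and CUCU. It is best known as a repressor of exon inclusion in nuclear pre-mRNA, where it binds introns around the exons it represses, and it also takes part in mRNA stability and translation. It is abundant in dividing and non-neuronal cells and gives way to its paralogue PTBP2 when neurons mature.

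A peak value is the log2 ratio of IP to input reads, placed on 1 scale for all chromosomes of a library. A peak was called enriched when this log2 was at least 3 and its −log10 p was at least 3. A reproducible region joins peaks of both replicates that share 1 nt or more of the same strand, and it is enriched when its best peak in each replicate is. The gene level is the median log2 over all peaks of a gene, with the median gene of the library set to 0, and was tested with limma (Benjamini-Hochberg adjusted p under 0.05) in genes with at least 5 peaks in each library. The gene level needs no transcript length, but it is tied to depth: in 1104 of the 12716 tested genes (8.68%) the median peak in both libraries had exactly the value of 3 IP reads to 1 input read, which gives a level of 0.37 and 0.52, and 0 of these were called. The number of regions in a gene grows with its length and abundance. The calls also depend on which genes enter the fit: of 81 genes called higher that are listed or named here, 0 were called when genes with 2 peaks or more were fitted, and 20 of the 70 tested with peaks of at least 10 IP reads. Of 35 called lower, 5 and 3 of 13 were. Calls below are those of the fit just described. The gene lists used below were drawn up with earlier results of these data known, so their counts are descriptions. Each list count is to be read beside the shares over all genes. Of all tested genes 4.6% were called higher and 6.31% lower, and 17.7% of genes with a reproducible region held an enriched one.

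The libraries were alike in size and scale. The median depth of peaks with recovered reads was 12 IP reads in replicate 1 and 9 in replicate 2, and 2.91% and 2.82% of their peaks were enriched. Across 303751 reproducible regions in 15650 genes the log2 values of the replicates had a Pearson correlation of 0.74, and of 0.88 across the 25097 regions of at least 50 IP reads in each, a description over regions that share libraries. Of the regions with a known gene strand, 91.6% lay on the strand that RefSeq gives the gene, and 12.2% of all reproducible regions overlapped a region on the opposite strand (called mirrored below). The label of the line was checked against fixed markers. Of 11 glial and glioma markers listed, 8 had peaks, 6 a reproducible region and 3 an enriched one. CD44, VIM and NES, which mesenchymal and glioma cells express, held 8, 3 and 1 enriched regions. The listed SLC1A3, ALDH1L1, CHI3L1 and TNC held no enriched region. The astrocyte marker GFAP had 2 and 3 peaks and no reproducible region, and S100B, AQP4 and SOX2 had no peak among those analysed here. All 7 neuron markers had peaks, with 176 reproducible regions and 1 of 5 tested genes called higher (SLC17A7 at 0.86), and all 7 endothelial and epithelial markers had peaks, with 64 regions. The neuron, oligodendrocyte, endothelial and epithelial lists held 0 enriched regions, and the leukocyte list held 2, both mirrored regions in CSF1R. Peaks in these genes do not by themselves identify a cell type.

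Sequence could be read for a small share of the regions only, since no genome was used here: a 30-nt window around the middle of a region was taken where it lay wholly inside a RefSeq promoter window (GRCh38.p14, 300 nt around each gene start). This covered 3705 of the 303751 reproducible regions (1.22%) and 31 enriched ones, all near a gene start. The 10 with the highest log2 in the lower replicate, outside UTRs, are shown to let the bound sites near gene starts be compared with the motifs PTBP1 is known for. They are printed 5′ to 3′ on the strand of the region, and capitals mark TCTT and CTCT.
MDM2: gacctgtgggcacggacgcacgccactttt
TEAD2: atcagagcccacggcgcacgggggagggga
ZMYND11: cattccagctgcgttctgaaatggaagaag
IST1: gaagtcggtgtctgctgcgttcacggcagg
KCNMA1: tCTCTgtttgtccttccatcctgggtgggg
SARNP: aggggtaacaagatggcgaccgagacggtg
TCAF2: ggccCTCTaaagaaaacaggaactgggtag
MIR632: gcttcctgtgggacgtggtggtagccgttg
SHC1: ggcaggggagaggggcttggatagccctac
NKTR: tccgggcCTCTTcctgccaaaccccacaca

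These windows lie at chr12:68809042-68809071 (MDM2, plus strand), chr19:49361608-49361637 (TEAD2, minus), chr10:248895-248924 (ZMYND11, plus), chr16:71895550-71895579 (IST1, plus) and chr10:77619769-77619798 (KCNMA1, minus). The others lie at chr12:55817684-55817713 (SARNP, minus), chr7:143289519-143289548 (TCAF2, plus), chr17:32350175-32350204 (MIR632, plus), chr1:154970900-154970929 (SHC1, minus) and chr3:42601251-42601280 (NKTR, plus). The genes are those the files give for the peak, and for ZMYND11, KCNMA1, TCAF2, MIR632 and NKTR the start site belongs to a neighbouring or overlapping gene. Of the 10 sequences shown, those of KCNMA1, TCAF2 and NKTR hold a capital motif. The KCNMA1 window, in an intron of a potassium channel gene, had a log2 of 4.19 and 4.65 and holds 20 pyrimidines of 30 bases. The NKTR window has the same 20 pyrimidines, with a log2 of 3.95 and 3.92. The TEAD2 window had 6.34 and 4.30 and holds 9 pyrimidines, and the SHC1 window had 4.07 and 4.09 and holds 10, so windows poor in pyrimidines were among the most enriched.

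Pyrimidine content was close in enriched and other windows near gene starts. It averaged 47.1% over the 31 enriched windows and 46.4% over the 3674 windows that were not enriched in both. TCTT or CTCT, searched on the strand of the region only and sharing the letters TCT, was in 4 enriched windows (12.9%), beside 13.1% of all 3705. By the log2 in the lower replicate, the share was 11.2% below 0, 11.8% at 0 to 1 and 15.0% at 1 to 2. It was 20.9% of 134 windows at 2 to 3 and 13.5% of 37 at 3 or more. From 0 upward, these levels count only windows with at least 10 recovered IP reads in replicate 1. TTCTCT, which contains CTCT, was in 0 enriched and 16 other windows. Other averages lay further apart: T made up 19.4% against 14.5% of bases and G with C 58.8% against 70.6%. Of the comparison motifs, TTTT was in 12.9% of enriched and 1.28% of other windows, GAGA in 22.6% and 13.7%, ACAC in 12.9% and 4.36%, and CCCC in 9.68% and 22.0%. In introns alone the pyrimidine share was 50.6% over 16 enriched windows and 46.7% over 1872 others. In coding sequence it was 41.4% over 7 windows and 45.2% over 327. These counts are small, no test was made, and the windows say nothing of regions deep in introns.

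PTBP1 regions over genes of H/ACA box small nucleolar RNAs (SNORA genes, guides of pseudouridylation that are cut from host introns) were enriched more often than other regions. This group was chosen after its values were seen. Overlap was counted on either strand, since no strand was available for these genes, so a mirrored pair counts as 2 regions. Of 132 reproducible regions that overlap a SNORA gene of the RefSeq table, 44 (33.3%, Wilson 95% interval 25.9 to 41.7%) were enriched, in 36 of the 91 SNORA genes that held a region, where 2.3% of all reproducible regions were enriched. At a depth of at least 50 IP reads in each replicate, it was 23 of 47 regions (48.9%), beside 8.20% of all regions that deep. The C/D box small nucleolar RNAs (SNORD genes, guides of 2′-O-methylation) had 5 of 65 regions enriched (7.69%), and 0 of 10 at that depth. Their median RefSeq length was 86 nt and that of the SNORA genes 135 nt, and the part of RNA length in this difference was not tested.

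Single libraries gave the same order. Of the PTBP1 peaks over SNORA genes, 31.6% were enriched in replicate 1 and 35.0% in replicate 2, with a median log2 of 2.38 and 2.59 beside 0.95 and 1.01 over all peaks. Over SNORD genes 10.5% and 12.05% were enriched, with a median log2 of 1.28 and 1.38. The IGF2BP2 libraries had the opposite order: 7.59% and 8.86% over SNORA genes, below their 9.19% and 9.36% over all peaks, and 52.1% and 46.2% over SNORD genes. The shares are not on a like footing between the proteins, since those over all peaks also lie apart. The constant in the log2 was -0.303 and -0.077 in the PTBP1 libraries and 1.738 and 1.905 in those of IGF2BP2. A log2 of 3 therefore takes fewer IP reads per input read in IGF2BP2. Median depth was 92 and 68 IP reads over SNORA genes in PTBP1, and 8 and 7 over SNORD genes in IGF2BP2. The difference between the proteins was not tested. In the 64 host genes, intron regions over a SNORA gene were enriched at a higher rate than other intron regions, 42 of 119 (35.3%) and 36 of 880 (4.09%). Enriched sites thus lay both over SNORA genes, on either strand, and elsewhere in the host introns, and the 2 sets were not matched for depth.

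**Figure D1:**
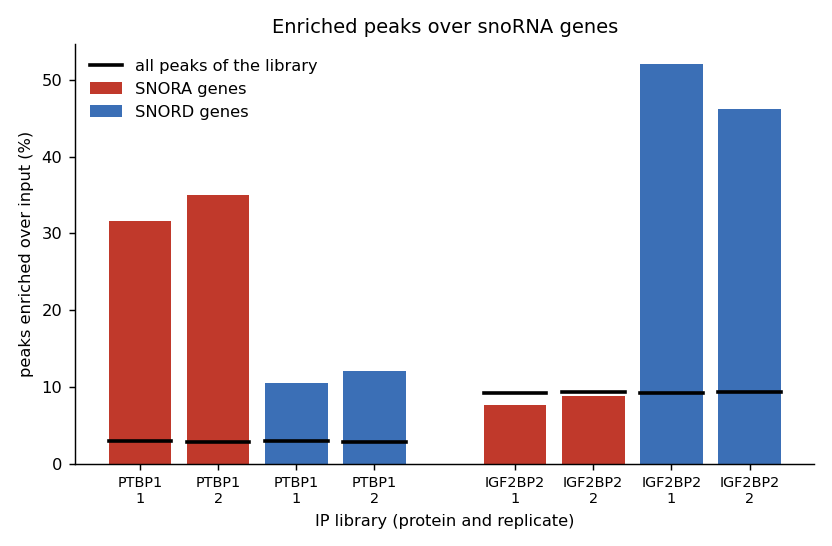
Share of peaks enriched over input (y axis, %) among peaks over SNORA (red) and SNORD (blue) genes in each of the 4 IP libraries (x axis); black lines give the share over all peaks of that library. SNORA bars stand at 31.6% and 35.0% in the PTBP1 libraries and at 7.59% and 8.86% in the IGF2BP2 libraries, while SNORD bars have the opposite order.

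By the lower of both replicates, the highest of these regions was SNORA62, in an intron of the ribosomal protein gene RPSA (chr3:39411054-39411165), with 201 IP reads to 2 input reads in replicate 1 and 140 to 2 in replicate 2, a log2 of 6.35 and 6.05. SNORA44, in the host gene SNHG12, reached 5.99 and 6.11. SNORA67, in an intron of the translation helicase gene EIF4A1 (chr17:7577954-7578064), reached 5.62 and 6.03. SNORA58 in MRPL3, a mitochondrial ribosomal protein gene, reached 7.28 and 5.16. The highest SNORD region was SNORD133 in LARP4, at 5.70 and 5.35. Of all 51 enriched regions over small nucleolar RNA genes, 49 were annotated to introns and 38 were not mirrored. Of the 44 with a known host gene strand, 38 lay on that strand.

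Of the 6 microRNA hairpins with an enriched region, 3 overlap a SNORA gene. These are MIR1291 in KANSL2 (log2 4.96 and 4.85), MIR3651 in IARS1 (4.59 and 5.90) and MIR1248 in EIF4A2 (3.78 and 3.83), which overlap SNORA2C, SNORA84 and SNORA81. Their mature sequences from RefSeq are given to show what these hairpins carry, with the seed (bases 2 to 8) in capitals. No 2 of them share a seed.
hsa-miR-1291: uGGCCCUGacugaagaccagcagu
hsa-miR-3651: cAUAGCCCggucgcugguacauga
hsa-miR-1248: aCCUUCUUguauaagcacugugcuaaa

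Regions over microRNA and small nuclear RNA genes were enriched at shares near the 2.3% of all regions, 6 of 214 (2.80%) and 1 of 40 (2.5%). Of those over tRNA genes 0 of 59 were, whose regions had a median log2 of -2.89 and -2.51.

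Enriched regions numbered 6990 (2.3% of reproducible regions) and lay in 2767 genes (17.7% of the 15650 genes with a reproducible region). Introns held 61.8% (95% Wilson interval 61.0 to 62.5%) and 62.0% of the enriched peaks of replicates 1 and 2, where introns held 74.0% and 73.6% of all peaks. Coding sequence held 27.0% and 26.6% of enriched peaks and 13.3% and 13.5% of all peaks. Of the 6990 enriched regions 30.4% lay in coding sequence. They were spread over many genes: 1411 genes held 1 enriched region, 1055 held 2 to 4 and 301 held at least 5. Those 301 genes held 37.6% of all enriched regions in genes. Neighbouring enriched regions of a gene stood a median of 3341 nt apart, and 9.99% were within 100 nt of each other. Along the gene, enriched intron regions were spread much as other intron regions: of 5 equal stretches of the gene, the one at the start held 22.8% of enriched and 22.2% of other regions, and the one at the end 15.3% and 16.7%.

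Whether an enriched peak was enriched again depended on its depth. No peak of fewer than 10 IP reads was enriched, which the thresholds alone ensure at 1 input read or more. Among enriched peaks of 10 to 24 IP reads, 19.6% of replicate 1 were enriched in replicate 2, and 34.8% the other way round. Among those of at least 200 IP reads it was 83.7% and 82.0%. The number of enriched regions in a gene therefore depends on its depth, also in what follows.

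**Figure D2:**
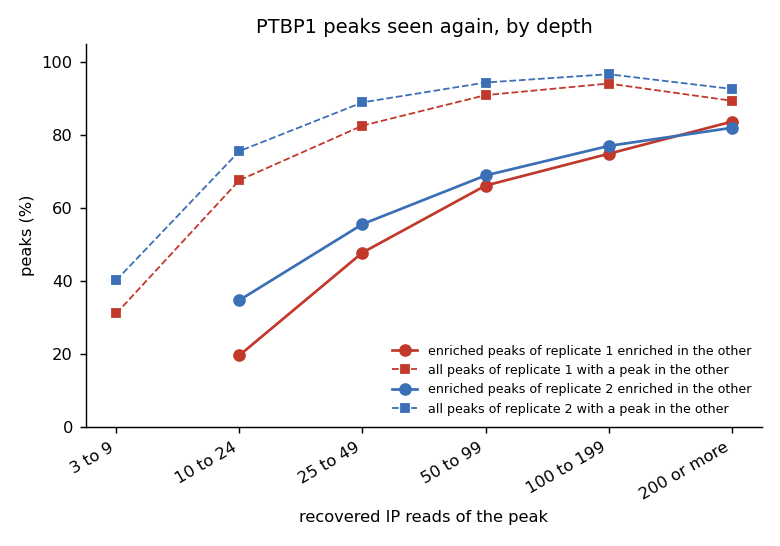
Share of PTBP1 peaks seen in the other replicate (y axis, %) by the recovered IP reads of the peak (x axis): circles for enriched peaks that were enriched in the other replicate, squares for all peaks with any overlapping peak. Enriched peaks enriched again go from 19.6% and 34.8% at 10 to 24 reads to 83.7% and 82.0% at 200 or more.

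Splicing targets that earlier work has tied to PTBP1 often held an enriched region in A172. Of 28 listed genes with a reproducible region, 18 held an enriched one (17.7% of all genes did), and of their regions of at least 50 IP reads 63 of 497 were enriched (12.7%, beside 7.98% over all genes). In gene level, 5 of 28 tested were called higher and 2 lower, where 4.6% of all tested genes were called higher and 6.31% lower. The list median was 0.24, beside 0.00 over all genes. The genes of this list are long and well expressed, so the count of genes with a region is not set against genes of the same depth.

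KCNMA1, which encodes the pore of a calcium-activated potassium channel with many splice forms, held 39 enriched regions, all annotated to introns, 30 of them not mirrored, and spread over 443 kb. Its gene level was 0.30 and 0.26 in the replicates and was not called (limma adjusted p = 0.248). The 39 were 4.76% of its 820 regions. MACF1, a giant linker of microtubules and actin, held 37, of which 30 were in coding sequence, with a gene level of 0.76 and 0.65 (adjusted p = 0.0456). ACTN1, the alpha-actinin gene with a pair of exclusive exons known for PTBP1 control, held 9, all in introns, with a gene level of 0.39 and 0.30. CD44, a hyaluronan receptor with a variable exon cluster, held 8 in introns, with 0.14 and -0.05.

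The tropomyosin genes, which encode actin filament coats and are textbook PTBP1 targets, differed from each other. TPM1 held 7 enriched regions, all 7 of at least 50 reads, and its best (chr15:63062576-63062609, coding sequence) had 536 IP reads to 9 input reads and 385 to 8, a log2 of 5.59 and 5.51. Its gene level of 0.42 and 0.31 was not called. TPM3 held 5 and was called higher at 1.34 and 1.47 (limma adjusted p = 0.0144). TPM2 held 1, at 3.16 and 3.37, and its gene level was called higher at 1.03. PKM, the pyruvate kinase gene whose exon choice PTBP1 is known to steer, held 5 enriched regions, 2 in introns and 3 in coding sequence, the best at 4.21 and 4.70. Its gene level was 0.43 and 0.52 (adjusted p = 0.0932).

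Transcripts of the PTBP family itself gave few sites. PTBP1, known to repress its own mRNA, had 34 reproducible regions and 0 enriched. Its highest lay in an intron (chr19:807748-807830), with 93 IP to 22 input reads and 82 to 16, a log2 of 1.78 and 2.28. PTBP2, the neuronal paralogue that PTBP1 holds down by exon skipping, held 2 of 24: an intron region (chr1:96806351-96806410) at 3.55 and 3.33, and a 5′ UTR region at 3.74 and 4.09. PTBP3 had 15 regions and 0 enriched, with 1 intron region at 3.16 and 2.73. The gene levels of the 3 genes were -0.41, -0.39 and 0.20, none called.

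Genes of other splicing proteins held enriched regions mainly in coding sequence in the hnRNP list, and in both introns and coding sequence in the SR list. Of 23 hnRNP genes with a region, 12 held an enriched one, with 22 of the 30 regions in coding sequence. In gene level 5 of 22 were called higher (HNRNPR, HNRNPUL2, HNRNPU, HNRNPA1 and HNRNPK) and 2 lower (HNRNPLL at -1.14 and HNRNPA0 at -1.44), with a list median of 0.05. HNRNPU, a nuclear scaffold protein gene, had gene levels of 1.28 and 1.13 and its best region in coding sequence (chr1:244854973-244855044) at 6.17 and 5.72. HNRNPUL1 held 5 enriched regions, of which 3 were not mirrored, at a gene level of 0.01 and 0.09. HNRNPR held 4 (gene level 1.04 and 0.71) and HNRNPM 4 (0.86 and 0.47, adjusted p = 0.0605).

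Of 31 SR protein and splicing regulator genes, 20 held an enriched region, 24 of the 53 regions in introns and 21 in coding sequence. In gene level 5 of 30 were called higher (SRSF3 at 1.48, SRRM1 at 1.41, SRSF7 at 1.09, SRSF5 at 0.92 and SF1 at 0.68) and 3 lower (TRA2A at -1.47, but 0.40 with peaks of at least 10 IP reads, TIA1 at -1.13 and RAVER1, a partner protein of PTBP1, at -0.84). SRRM2, a large splicing coactivator gene, held 6 enriched regions of 54, with 495 IP to 5 input reads and 360 to 6 at the best. MATR3 held 5, of which 4 were mirrored intron regions over SNORA74A and SNORA74D. MBNL2 held 5, all in introns, and SRSF11 held 4.

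The actin and adhesion list held the most enriched regions of the 15 lists. Of its 33 actin and adhesion genes, 23 held an enriched region, 210 regions in all, though at 50 reads or more the share was 9.49%, near the 7.98% over all genes. In gene level 7 of 33 were called higher (AHNAK, MACF1, TPM3, TLN1, MYL6, TPM2 and MYH9) and 1 lower (CNN2 at -1.23), with a list median of 0.37. AHNAK, a giant membrane scaffold protein gene, held the most in the whole set, 57 of its 124 regions, within 21.9 kb of chromosome 11. Its gene level was 1.84 and 1.91 (adjusted p = 0.0137), and its best region (chr11:62531450-62531521) had 471 IP to 3 input reads in replicate 2. The files annotate all 57 to introns, 54 of them on the minus strand, and only 4 of its regions to coding sequence. AHNAK is known for 1 very large coding exon, and which of the 57 lie in it was not determined here. With intron peaks left out, its gene level was -0.26. DST, a giant plakin gene, held 32, of which 16 were in coding sequence, with a gene level of 0.33 and 0.52 that was not called.

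In microtubule and centrosome genes 60 of 78 enriched regions lay in coding sequence, beside 30.4% of all enriched regions, and 33 of 161 regions of at least 50 reads were enriched (20.5%). CEP170, a centrosomal protein gene, held 11, 10 of them in coding sequence but only 5 not mirrored, and CLIP1, a microtubule plus-end protein gene, held 10, all in coding sequence and none mirrored. Neither gene level was called (0.37 and -0.21 for CEP170, 0.13 and 0.05 for CLIP1). MAP1B and MAP1A, neuronal-type microtubule-associated proteins, held 8 and 4 and were called higher at 1.05 and 1.28. Of 28 tested, 3 were called higher, the third being TUBB at 1.25, and 1 lower, TUBB4B at -1.43. DYNC1H1, the dynein heavy chain gene, held 8 at a gene level of 0.28 and 0.09.

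In mitosis and cell cycle genes 48 of 67 enriched regions lay in coding sequence, and 36 of 179 deep regions were enriched (20.1%). MKI67, the proliferation marker Ki-67, held 14 of its 29 regions, all in coding sequence, at a gene level of 1.92 and 2.05 (adjusted p = 0.0137). Its best region (chr10:128106560-128106623) had 115 IP to 1 input read and 83 to 1. CENPF, a kinetochore gene, held 16 of 49, but its gene level of 1.27 and 0.26 was not called. SMC1A, a cohesin gene, held 7 at 1.73 and 1.48 and was called higher, while its partner SMC3 was called lower at -0.91. Of 28 tested, 3 were called higher (CENPE the third, at 1.02) and 2 lower (ANLN at -0.82 beside SMC3). With intron peaks left out ANLN was called higher, at 1.64. TPX2, a spindle assembly gene, held 6.

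**Figure D3:**
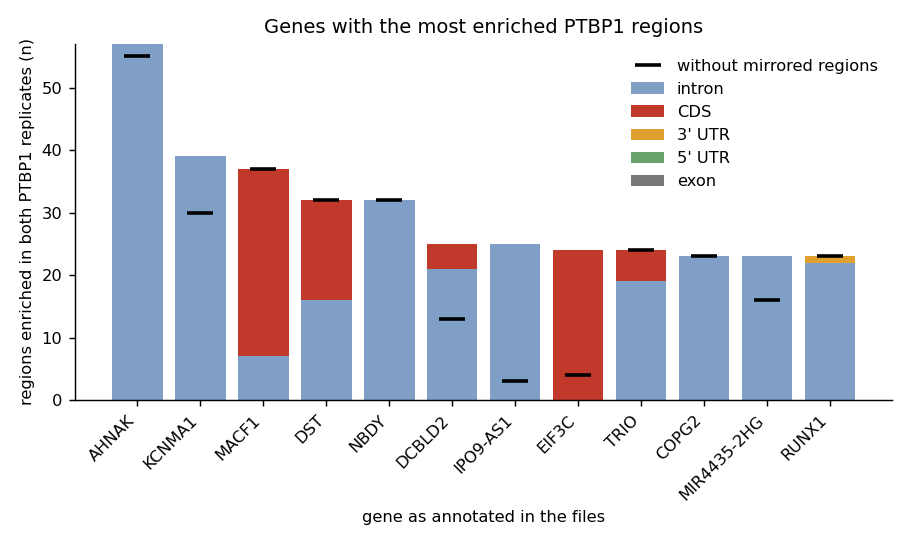
Number of regions enriched in both PTBP1 replicates (y axis) in the 12 genes with the most (x axis), stacked by the annotation in the files; black ticks give the number without mirrored regions. AHNAK stands at 57, all annotated to introns, MACF1 and EIF3C are mostly coding sequence, and EIF3C and IPO9-AS1 keep 4 and 3 regions without mirrored ones.

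Messages for chaperones were the list with the highest share of enriched deep regions, 26 of 79 (32.9%). In gene level 11 of 31 were called higher and 3 lower (TCP1 at -0.91, HSPB1 at -1.18 and CCT4 at -1.45), with a list median of 0.38. HSPA5, the endoplasmic reticulum Hsp70, held 6 enriched regions of 10, at a gene level of 2.36 and 2.11, and the best (chr9:125239027-125239141) had 154 IP to 2 input reads and 118 to 1. CCT3, a chaperonin subunit gene, held 8, of which 4 were mirrored, at 0.78 and 0.86. STIP1, which links Hsp70 to Hsp90, held 5, all in coding sequence, at 0.87 and 1.11. HSP90B1 held 4, all in coding sequence, but its gene level was 5.76 in replicate 1 and 1.63 in replicate 2 and was not called (adjusted p = 0.0587). HSP90AB1, a cytosolic Hsp90, held 4 at 2.41 and 2.11, and DNAJA1, an Hsp40, held 3 at 2.33 and 2.42.

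Genes of acidic histone chaperones and nucleolar proteins had the most one-sided gene levels of the lists: 10 of 20 were called higher and 0 lower, with a list median of 0.64. Without a test of the list against other genes this is a count only. NCL, nucleolin, held 6 enriched regions, all in coding sequence, at a gene level of 1.37 and 1.26. SUPT16H and SSRP1, the subunits of the FACT histone chaperone, were at 1.95 and 1.69 and at 1.49 and 1.63. ANP32B, an acidic nuclear phosphoprotein gene, held 3, with the best in coding sequence (chr9:98015364-98015426) at a log2 of 7.15 and 6.54. NAP1L1 held 6 at a gene level of 0.05 and 0.10. Of the deep regions of the list 13.9% were enriched.

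Ribosomal protein genes had 12 of 24 called higher and 2 lower (RPS3 at -0.90 and RPL8 at -0.77), with a list median of 0.74 and 18 of 64 deep regions enriched (28.1%). RPS6 held an enriched region in each of its 5, all in coding sequence, at a gene level of 3.63 and 3.37, the best (chr9:19376494-19376650) at 70 IP to 1 input read and 78 to 1. RPS24 held 3 of 4 at 4.62 and 3.16, and RPL4 held 3 at 2.02 and 1.53. RPSA held 3, of which 2 were in introns over SNORA genes, and its gene level of 0.41 and 1.07 was not called. Several of these genes host small nucleolar RNAs and have few peaks, RPS6 with 8 in each library, and many have near-identical processed copies elsewhere, so their values are uncertain where reads could be split.

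Translation factor genes had 6 of 26 called higher and 2 lower, with 60 of 77 enriched regions in coding sequence. PRRC2C, an RNA-binding protein gene of stress granules, held 15, all in coding sequence, at a gene level of 1.67 and 1.60, and the best (chr1:171522220-171522259) had 128 IP to 1 input read and 88 to 1. EIF3C, an initiation factor subunit gene, held 24, but 20 of these were mirrored and the gene has a near-identical copy, so its count is uncertain. EIF4A2 held 5 at 2.28 and 2.31, of which 3 lay in introns over SNORA81 and SNORA63. PRRC2B held 9 at 0.33 and 0.30.

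Chromatin regulator genes had 3 of 34 called higher (CHD4, KDM5A and SMARCA2) and 2 lower (ASH1L at -1.14 and SUZ12 at -1.96). Over all tested genes 4.6% were called higher and 6.31% lower. An enriched region was held by 25 of 34 (17.7% of all genes held one), with 86 of 120 regions in coding sequence. BAZ1B, a chromatin remodeller gene, held 13 of 31, 12 in coding sequence, at 0.91 and 0.47. KMT2C held 13, NSD2 10 and BPTF 9. ASH1L held 7 enriched regions although its gene level was low in both replicates, -1.21 and -1.06. With intron peaks left out it was called higher, at 1.65.

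**Figure D4:**
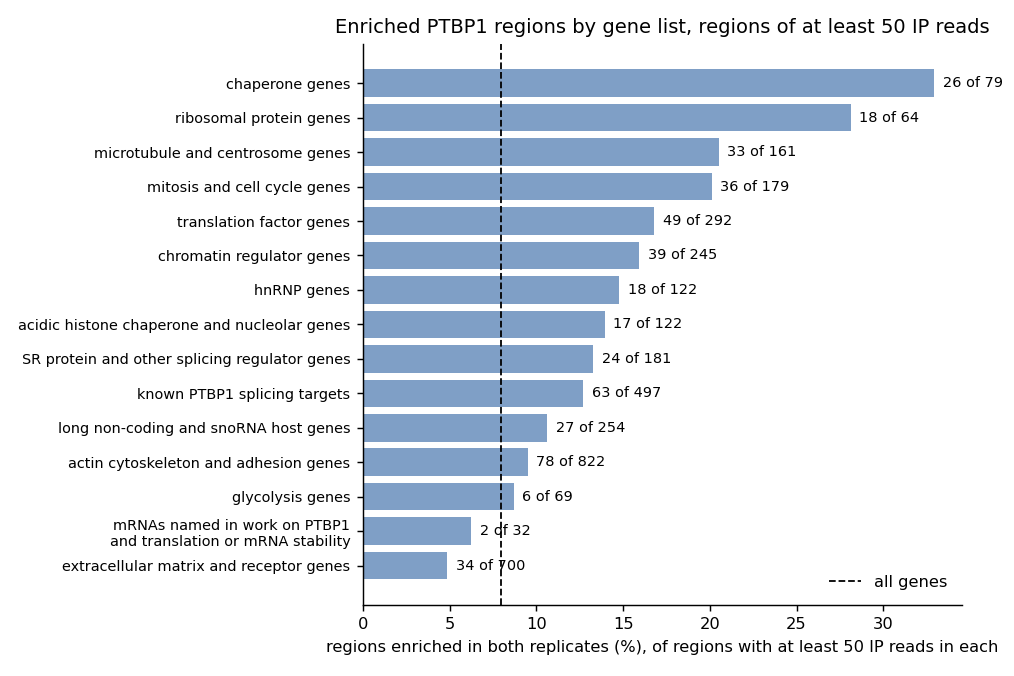
Share of regions enriched in both PTBP1 replicates (x axis, %) among regions of at least 50 recovered IP reads in each, for the 15 gene lists (y axis), with the counts beside each bar and the share over all genes as a dashed line. Regions without recovered reads, below input or at the limit of the −log10 p, are left out. Chaperone and ribosomal protein genes stand at 32.9% and 28.1%, extracellular matrix and receptor genes at 4.86%, and all genes at 7.98%.

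Among deep regions, the lowest share of the 15 lists was that of extracellular matrix and receptor genes, 34 of 700 (4.86%). Over their regions of any depth 3.10% were enriched, beside 2.29% over all genes. In gene level 1 of 27 was called higher (VCAN at 0.79) and 1 lower (COL1A2 at -0.85). COL5A1, a collagen gene with 295 deep regions, had 8 of these enriched, and its gene level of 0.30 and 0.28 became -0.69 with intron peaks left out. SPARC, a matrix protein gene, had 4 of 28 deep regions enriched. The genes that work on PTBP1 has tied to translation or mRNA stability had 2 of 32 deep regions enriched, with 1 of 19 called higher, LDHA at 0.97, and 0 lower. INSR, the insulin receptor, and PFKFB3, a regulator of glycolysis, held 2 intron regions each. Glycolysis genes had 1 of 17 called higher (LDHA) and 1 lower (GPI at -0.79). PFKP held 1 and ENO1, enolase 1, held 1.

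Long non-coding and small nucleolar RNA host genes had 5 of 20 called higher and 3 lower. GAS5, which hosts C/D box RNAs, held 4 enriched regions of 7 at a gene level of 3.65 and 3.26, the best (chr1:173866991-173867043, an exon) at 100 IP to 2 input reads and 98 to 2. SNHG12, SNHG1 and TUG1 were also called higher, at 4.39, 1.69 and 1.61, as was SNHG10 at 3.76, whose 2 enriched regions are mirrored. SNHG7, SNHG16 and NORAD, a decoy of Pumilio proteins, were called lower at -0.86, -0.91 and -0.92, though SNHG7 was at 0.38 with means of peaks. MIR4435-2HG held 23 enriched regions of 568 and PVT1 held 12 of 389, at gene levels near 0. NEAT1, the paraspeckle scaffold, held 3 of 52.

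Of the genes with the most enriched regions outside the lists, NBDY, which encodes a small protein of mRNA decapping bodies, held 32 of 79, all in introns on its own strand within 37.3 kb. Its gene level was 1.98 and 2.05 (adjusted p = 0.0137). COPG2, a coat protein gene, held 23 of 59, all in introns, at a gene level of 1.11 and 0.94 (adjusted p = 0.0213), and only 5 of its regions reached 50 reads. TRIO, a guanine nucleotide exchange factor gene, held 24 of 402 and RUNX1, a transcription factor gene, held 23 of 447, with gene levels of -0.12 and 0.03, the latter -1.10 with intron peaks left out. In DCBLD2, a receptor-like protein gene, 13 of 25 were not mirrored, and in IPO9-AS1, an antisense gene, 3 of 25, so the strand of their reads is uncertain.

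The single highest regions of at least 50 IP reads in each replicate sat on 1 or 2 input reads, so their ratios are coarse. The region in NBPF12 (chr1:146990466-146990511, coding sequence) had 273 IP to 1 input read and 275 to 1, a log2 of 7.79 and 8.03. NBPF12 and NBPF25P, at 6.60 and 7.55, belong to a family of near-identical copies. RAD21, a cohesin subunit gene, had 7.63 and 7.49 in a mirrored coding region, and EXT1, a heparan sulphate synthesis gene, 6.73 and 6.42 in an intron. HSP90B1 (chr12:103937791-103937806, coding sequence) had 7.09 and 6.79. The intron region of MERTK, a receptor kinase gene (chr2:111912021-111912042), had 7.26 and 6.68. CDC123 (7.08 and 7.24, mirrored), FAM239A (6.57 and 6.60) and EIF3C (6.49 and 7.13, mirrored) were also among the highest. Of the 2059 enriched regions this deep, 138 lay in no annotated gene.

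A further 171 enriched regions stood at the upper limit of 400 that the deposited −log10 p reaches in both replicates, and for these the reads could not be recovered. The highest were in ANP32B, at 7.15 and 6.54, in THSD4 (6.18 and 6.61, mirrored) and in the 3′ UTR of HMGB1, a chromatin protein gene, at 6.12 and 6.47. SNHG12, RPS24, HSP90AB1, EIF4A1 and NCL followed.

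Over all tested genes, 585 of 12716 (4.6%) were called above the median gene and 803 (6.31%) below. These counts were 0 and 18 of 15657 with genes of at least 2 peaks, and 186 and 522 of 6939 with peaks of at least 10 IP reads. With log2 as deposited they were 2473 and 1999 of 12716. The highest called levels belonged to genes with few peaks: SNHG12 at 4.57 and 4.21 with 7 and 5 peaks, RPS24 at 4.62 and 3.16 with 8 and 6, and ACBD3-AS1 at 3.40 and 4.34 with 5 and 6. CTSL, cathepsin L, had 2.85 and 3.89. RSRC2 and SLU7, both linked to splicing, had 3.26 and 2.64, and 2.69 and 2.99. BEST1 had 3.29 and 2.77, but its 4 enriched regions, all in the 3′ UTR, are mirrored, with 2 on each strand. Both replicates were above 0 for each of these, which their choice as the highest levels makes likely in itself.

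The lowest levels belonged to abundant structured RNAs. RN7SL2 and RN7SL3, the signal recognition particle RNAs, stood at -6.91 and -6.81, and at -6.86 and -6.72 (adjusted p = 0.000189 for both). RPPH1, the RNase P RNA, stood at -5.67 and -5.70, RMRP, the RNase MRP RNA, at -5.24 and -5.43, and the U1 small nuclear RNA gene RNU1-1 at -4.32 and -4.86. None of these 5 genes held an enriched region. TMEM158 and OR1F1 were also low, at -2.91 and -3.67 and at -3.15 and -3.09. RPS29 (-5.28 and -2.39), PPEF2 (-4.36 and -7.10) and SPTY2D1OS (-1.46 and -5.74) differed more between replicates, and SPTY2D1OS held 1 enriched region all the same.

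**Figure D5:**
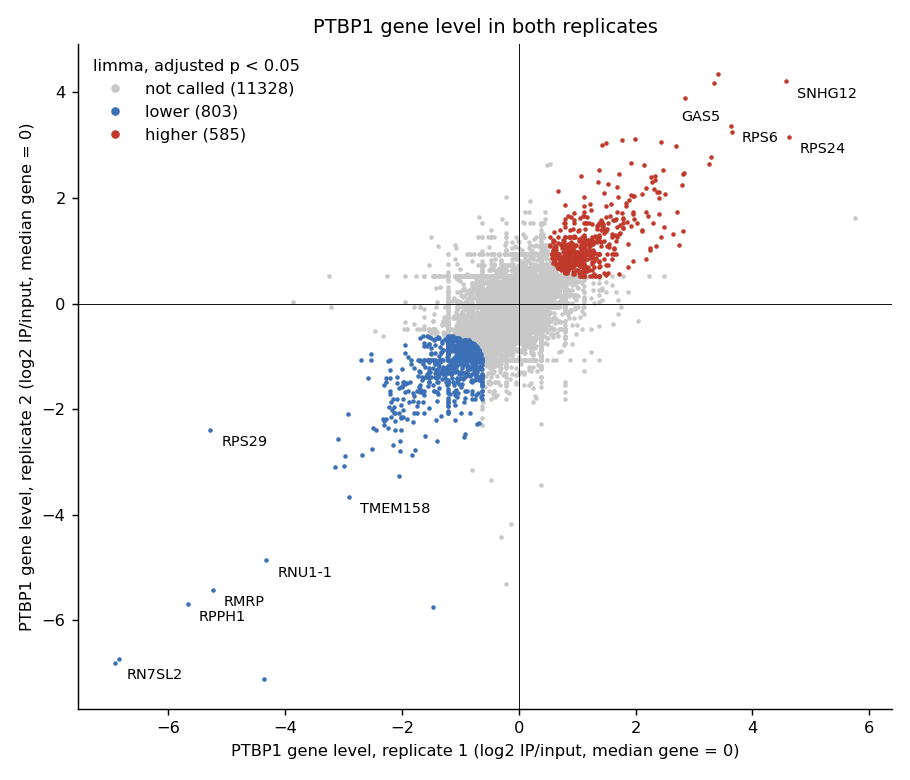
PTBP1 gene level in replicate 1 (x axis) and replicate 2 (y axis), in log2 with the median gene at 0, for the 12716 tested genes; red genes were called higher (585), blue lower (803) and grey not called. SNHG12 and RPS24 stand at the upper right, and RN7SL2, RPPH1, RMRP and RNU1-1 at the lower left.

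To see which gene levels differ from those of another RNA-binding protein, PTBP1 was set against IGF2BP2, with each library centred on its median gene. Of 9670 genes tested, 410 (4.24%) were higher in PTBP1 and 93 (0.962%) lower (limma, 2 libraries against 2). With peaks of at least 10 IP reads it was 150 (9.50%) and 161 (10.2%) of 1579, so the excess of higher genes was not seen there. Leaving out a library leaves 1 in its arm, assumed to vary like the other protein's 2, so these counts also show whose spread is used. Without PTBP1 replicate 1, 1 gene was called higher and 0 lower (921 and 1131 at an unadjusted p under 0.05), and without replicate 2, 1 and 1. Without an IGF2BP2 replicate the counts were larger, 1248 and 542 without replicate 1 and 1076 and 567 without replicate 2.

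HNRNPU had 1.33 and 1.20 in the PTBP1 libraries and -2.61 and -2.54 in those of IGF2BP2, a difference of 3.84 ± 0.20 (SE, adjusted p = 0.0357). TPM2 had 1.13 and 1.05 against -3.27 and -4.08, a difference of 4.77 ± 0.33. HMGB2, a chromatin protein gene, had 1.60 and 1.18 against -2.95 and -3.12. BTF3, KHDC4, TMSB10, DRAP1, NBPF10 and RPS24 differed by 3.85 to 4.14. The largest difference, 6.54 in TPRG1, came from low IGF2BP2 values (-6.47 and -6.77), with PTBP1 at -0.74 and 0.59. None of these 10 genes held a region enriched in both IGF2BP2 replicates, where 3709 of all 19760 genes did. The 10 were picked by their difference to IGF2BP2, so this count adds no separate support.

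In the other direction FGFRL1, an FGF receptor-like gene, had -0.23 and -0.13 in PTBP1 and 4.62 and 4.38 in IGF2BP2, a difference of -4.67 ± 0.09 (adjusted p = 0.00516). RNU1-1 and RMRP had differences of -4.30 and -2.34. INSIG1, a sterol sensor gene, ITPRIPL2, RNF26, CNOT6L, NUDT4, SLC5A11 and GRPEL2-AS1 differed by -2.39 to -2.82.

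The list counts are to be read beside the 4.24% higher and 0.962% lower over all 9670 tested genes. At that lower share, 0 lower in a short list says little. Among the lists, genes higher in PTBP1 than in IGF2BP2 were 9 of 19 acidic histone chaperone and nucleolar genes, 9 of 22 hnRNP genes, 13 of 33 actin and adhesion genes and 6 of 28 known splicing targets, with 0 lower in each. The median differences were 1.75, 1.21, 1.07 and 0.70, beside 0.01 over all genes. Ribosomal protein genes had 5 of 17, extracellular matrix and receptor genes 6 of 24, translation factors 5 of 23 and chaperones 6 of 28, also with 0 lower. The SR list had 6 of 29 higher and 1 lower. Chromatin regulators had 1 of 32, microtubule genes 2 of 27 and mitosis genes 3 of 24. At the level of regions, 189 of the 6990 enriched PTBP1 regions (2.70%) overlapped an enriched IGF2BP2 region, as did 0.815% of the PTBP1 regions that were not enriched in both.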

How the data were processed

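Peak lists of the 2 PTBP1 and 2 IGF2BP2 IP libraries were used. Reads were aligned with HISAT2 to hg38, per the submitters' processing notes; the tools for peak calling, annotation and filtering were not given in the sources used here. Per the file headers, each deposited peak has a log2 IP to input value, a −log10 p-value (at most 400) and an overlap length, an other measure that was not used; peaks were listed per library, not pooled. The log2 constant differed between chromosomes. It was read from the commonest value, that of 3 IP reads to 1 input read, and removed, and the library's median constant over 24 chromosomes was added back. Whole IP and input reads that give both the log2 and the −log10 p were recovered for 98.8% and 98.5% of the PTBP1 peaks where this was possible, which is 73.5% and 76.2% of all peaks. It was possible only for peaks not below input as deposited and with a −log10 p under 400, a cut that shifts with the chromosome's constant.

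Gene levels were tested with limma 3.58.1 in R 4.3.3 (trend, Benjamini-Hochberg), with a shared spread and 2 libraries a group. Tables were made with Python 3.11.15, pandas 2.3.3 and scipy 1.17.1. On simulated data, read recovery was right for 100.0% of 8573 peaks. A self-test of the fits used 9670 genes and a set spread (SD) of 0.228. There the PTBP1 fit recovered 44% of log2 steps of 0.5 and 99% of steps of 1 with 10 false calls. The fit of PTBP1 minus IGF2BP2 recovered 3% and 72% with 0. The 12716 tested genes had unequal spread: the SE of the level was 0.166 in KCNMA1 and 0.976 in SNHG12. Recovery at this unequal spread was not tested, and neither were false calls. Intervals cover counting error only. Ratios rest on few input reads, often 1, so the highest are coarse.

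Members and lists were chosen with earlier results of these data known. Genes named were up to 4 list members with the most enriched regions, the 10 genes with the most (12 with ties), the 10 highest and lowest in gene level, the 10 highest regions and the 10 largest differences each way. One of these regions is not reported here. Other list members, and the small nucleolar RNA group, were picked after values were seen. The planned genome-wide reading of sequence was replaced by RefSeq promoter windows, and distances to exon edges were not analysed. Alternatives covered thresholds, peak minimums, means, deposited values, introns, strand, the replicate block and single replicates.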

Additional observations from a re-analysis of the deposited data

How the results depend on the processing

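Alternatives on strand and those for SNORA genes were chosen after seeing the data. Genes called higher in PTBP1 (585 of 12716) numbered 1172 with means of peaks and 2473 with log2 as deposited, of the same 12716. They numbered 186 of 6939 with peaks of at least 10 IP reads and 0 of 15657 with at least 2 peaks a gene (1936 at an unadjusted p under 0.05). With at least 20 peaks they were 1283 of 6227, and without introns 922 of 6733. Genes called lower (803) numbered 1250, 522, 18 and 1999 with means, 10 reads, 2 peaks and deposited values, of the same totals. Genes higher than in IGF2BP2 (410 of 9670) numbered 1107, 150, 0 (1850 unadjusted) and 791 in those 4 settings, and genes lower (93) 827, 161, 1 and 424. Genes tested in them numbered 9670, 1579, 13031 and 9670. At 10 reads 9.50% were thus higher and 10.2% lower, and 126 of the 410 and 5 of the 93 were tested. Leaving out 1 library gave 1 to 1248 higher and 0 (1131 unadjusted) to 567 lower. The labels do not say that equal replicate numbers share a batch, and deviations of same-numbered libraries had a correlation of 0.0133. With a replicate block 410 genes were higher and 69 lower, 329 and 42 of them shared with the fit without it. Enriched regions (6990) numbered 16042 and 2246 at a log2 of at least 2 and 4, 2549 at a −log10 p of at least 10, 15378 with log2 as deposited, and 15159 to 17451 in single replicates. A stricter overlap of at least 0.5 of the shorter peak gave 52.9% and 58.7% of peaks found again in place of 55.6% and 61.5%, and 84.9% and 88.5% of enriched peaks in place of 86.2% and 89.6%. Among peaks of at least 10 IP reads 77.3% and 82.7% were found again. TCTT or CTCT was in 36.4% of enriched regions read as called (8 of 22, beside 24.6% of 3032 others) and in 0% of 11 at a −log10 p of at least 10, in place of 12.9%. The SNORA share (33.3%) was 54.5%, 18.2% and 24.2% at a log2 of at least 2, of at least 4 and at a −log10 p of at least 10. With introns left out the gene levels of AHNAK, COL5A1, RUNX1, ANLN, ASH1L and EIF2S3 reversed, to -0.26, -0.69, -1.10, 1.64, 1.65 and 1.38. So did those of ANLN (0.035), RPS2 (-0.24) and TRA2A (0.40) with peaks of at least 10 IP reads, and SNHG7 (0.38) with means. The cause was not tested for any of these. Of the 20 named differences, fitting genes with at least 2 peaks kept 1. Few reads limit most peaks.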
